A study of Mus musculus with 6 samples.

Results

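Potassium channel subunits are the protein coding genes whose symbols begin with Kcn, and 39 of them had a row among the 18908 genes of the deposited table (0.206%). The rule reads the name and gene type only, although the family was picked with earlier results of these data known. The libraries were made from mouse cells that the labels call bone marrow-derived macrophages, 3 given a control shRNA, with the genotype WT, and 3 given an shRNA against VprBP, with the genotype VprBP1 Knockdown. VprBP is encoded by Dcaf1 and recruits substrates to a ubiquitin ligase, and shRNAs are hairpin transcripts processed into small RNAs against a matching mRNA. Nothing in the labels ties the libraries to separate mice or cultures. The spread that p-values rest on here may therefore be technical. Because the checks below went against the labels, the groups are called control-labelled and VprBP-labelled libraries, and no direction is ascribed to loss of VprBP.

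Potassium channels let potassium ions leave or enter a cell down their gradient and thereby set the resting membrane potential, end electrical spikes and regulate cell volume. Voltage-gated channels open when the membrane depolarises and are built from 4 pore-forming subunits, some of which are silent alone and only modify others. Inward rectifiers pass potassium more easily into the cell than out of it and hold the membrane near rest. Two-pore channels carry a pair of pore domains in each subunit and give a leak current. Calcium-activated channels open when calcium rises inside the cell, and auxiliary subunits bind the pore-forming proteins and change their gating or their transport to the surface. In macrophages the voltage-gated subunit Kcna3, the inward rectifier Kcnj2 and the calcium-activated Kcnn4 are the best known members.

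Dcaf1 read 42.2, 43.4 and 40.6 CPM under the control label and 35.9, 34.5 and 36.7 CPM under the VprBP label, where CPM is the usual depth-scaled count unit, here after TMM scaling between libraries. Its mean under the VprBP label was 84.9% of that under the control label (log2 difference -0.24, SE 0.07, edgeR adjusted p = 0.00625, lower in 3 of 3 libraries), and a two-sided exact permutation test returned p = 0.1, its lowest possible value for 3 against 3. The difference was not called with scaling by library size only. Only 2 of 10 macrophage markers had a row, Cd68 and Lyz2, and their summed level, nearly all Cd68 under the control label, ran from 31.5 to 33.9 CPM in the control-labelled and from 3.44 to 3.56 CPM in the VprBP-labelled libraries. Cd68 fell 31.0-fold and Lyz2 rose 2.37-fold. All 8 pigment cell markers had a row, 5 rose and 3 fell, with sums of 21053 to 21432 CPM and 19634 to 20143 CPM. All 6 Schwann cell markers had a row, 5 rose and 1 fell, and their sums went from 48.6 to 53.3 CPM up to 988 to 1056 CPM. The 5 stromal markers (3 rose, 1 fell and 1 was not tested) went from 47.3 to 50.3 CPM up to 365 to 417 CPM, and the 3 of 6 neuronal markers with a row, nearly all Tubb3, from 12.7 to 14.6 CPM up to 78.0 to 93.8 CPM. Of the other lists, 3 of 6 osteoclast, 3 of 6 muscle, 2 of 5 T cell, 4 of 5 epithelial and 2 of 4 endothelial markers had a row, and none of these lists summed to more than 22.1 CPM in a library. These markers moved with the labels beside every result given here, and their part in the results was not tested. In bulk RNA, fewer cells of a type and less RNA per cell cannot be told apart. Total counts per library ran from 16839445 to 21838875.

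GENCODE M21 annotates 94 protein coding Kcn genes, and 55 of them had no row, among them Kcna3, Kcnj2 and Kcnma1, the pore of the large-conductance calcium-activated channel. No listed gene had fewer than 10 counts in all. Rows existed for 15 of 40 voltage-gated pore genes, 7 of 15 inward rectifiers, 5 of 14 two-pore channels and 2 of 5 calcium-activated pore genes. They also existed for 7 of 13 auxiliary genes of voltage-gated channels, 2 of 4 beta subunits of the large-conductance channel, and Kcnu1, which is related to that channel by sequence. Most members were scarce. The mean was at least 10 CPM for 3 members in the control-labelled and for 5 in the VprBP-labelled libraries, and it stayed under 1 CPM in both groups for 18 of the 39.

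Of the 39 members, 24 had enough counts to be tested. In the edgeR quasi-likelihood test over all 14641 tested genes, with a call at a Benjamini-Hochberg adjusted p below 0.05, 14 members rose, 5 fell and 5 were not called in the VprBP-labelled libraries. The called share of members, 79.2%, stood beside 75.0% of all tested genes, so being called was no feature of the members. Higher calls made up 37.9% and lower calls 37.0% of all tested genes. The median log2 difference of the 24 members was 1.18, against -0.01 for all tested genes. That median cannot be read as a shift of the family, because 8 of the 24 reached the count minimum in VprBP-labelled libraries only and 3 in control-labelled libraries only, and such genes had to differ. Of the 10 members that reached the minimum in all 6 libraries, 6 rose, 1 fell and 3 were not called. The groups did not overlap for 20 of the 24 members, beside 77.2% of all tested genes. A called rise of at least 2 on the log2 scale was seen for 10 members, beside 8.74% of all tested genes, and a called fall of that size for 3 members, beside 3.65%. Nothing can be read from these counts either, since the 10 include all 8 members tested only through VprBP-labelled libraries, and the 3 include 2 tested only through control-labelled ones. The other large fall, of Kcnab1, reached the count minimum in 3 control-labelled libraries and 1 VprBP-labelled library.

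**Figure D1:**
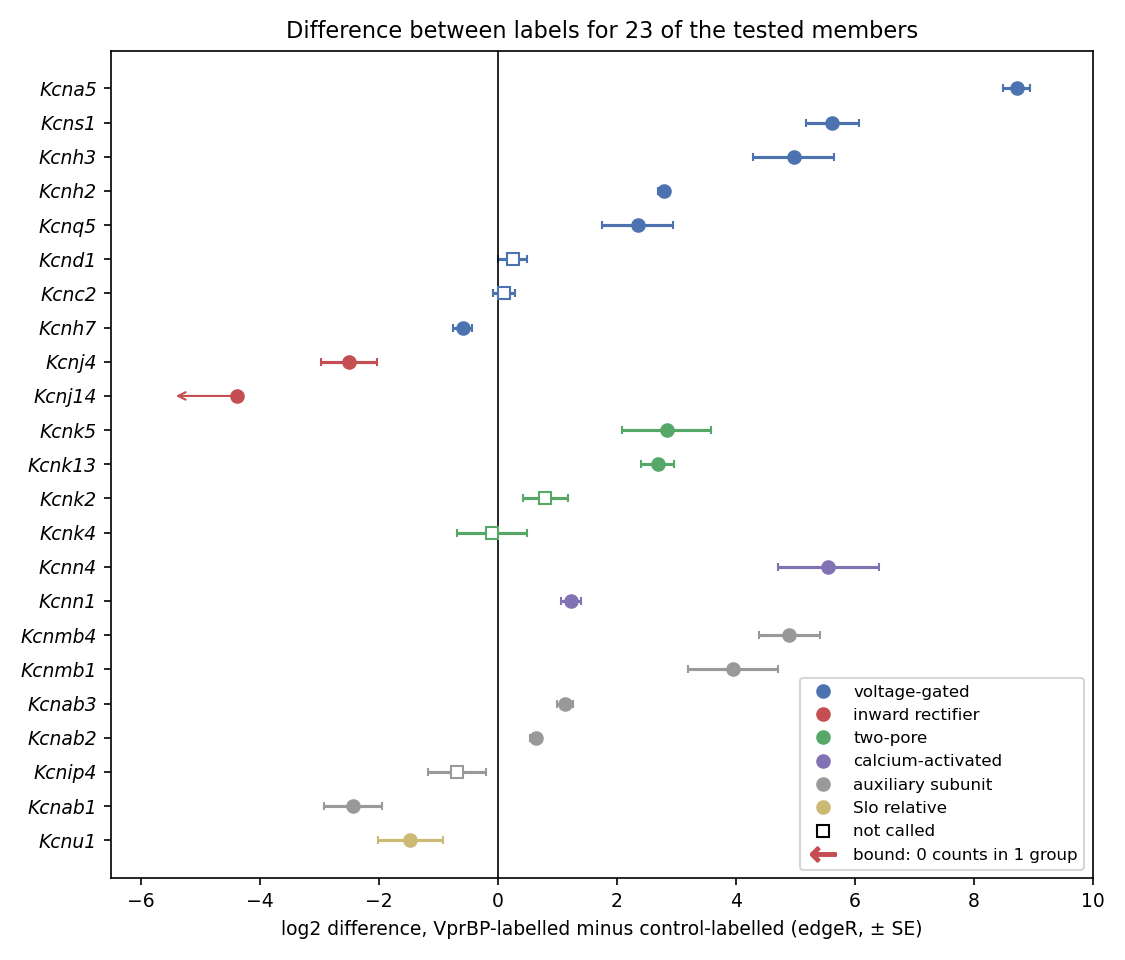
log2 difference (VprBP-labelled minus control-labelled, edgeR, bars ± SE) for 23 of the 24 tested members, coloured by structural group, with open squares for the 5 that were not called. Kcnj14 had no counts in the VprBP-labelled libraries and is drawn at its bound with an arrow. The voltage-gated points run from -0.59 to 8.72, and both inward rectifiers lie below 0.

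Voltage-gated pore genes included Kcna5, whose fitted rise was the largest of the members tested. Among 9 tested there were 6 that rose, 1 that fell and 2 not called, with a median log2 difference of 2.35. Their called share, 77.8%, was close to the 75.0% of all tested genes. The count minimum was reached only in VprBP-labelled libraries by 4 of them, which had to be higher there, and of the 5 that reached it in all 6 libraries 2 rose, 1 fell and 2 were not called. Kcna5 encodes Kv1.5, a delayed rectifier of heart and smooth muscle (ENSMUSG00000045534.4, GRCm38 chromosome 6, 126532551 to 126535412, minus strand). It read 0.239, 0.0619 and 0 CPM under the control label and 52.5, 47.6 and 49.5 CPM under the VprBP label. It was thus nearly silent under one label and among the most abundant members under the other, with no overlap. The fitted rise was 422-fold (log2 difference 8.72, SE 0.23, edgeR adjusted p = 3.52e-16). Only 6 counts stood in the control-labelled group, so the size is uncertain: the ratio of scaled counts had a 95% counting interval of 205 to 1220, and the fitted fold was 1329 without control-labelled library 1, which held 5 of those counts.

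Kcnh2 encodes ERG1, whose rapid delayed rectifier current repolarises the heart muscle (ENSMUSG00000038319.14, chromosome 5, 24319589 to 24351604, minus strand). It read 9.27, 11.3 and 12.3 CPM under the control label and 81.1, 68.1 and 75.3 CPM under the VprBP label. All VprBP-labelled values lay far above the highest control-labelled one. The rise was 6.89-fold (log2 difference 2.78, SE 0.10, edgeR adjusted p = 2.33e-14). Kcns1 encodes Kv9.1, a subunit that forms no channel alone and modifies Kv2 channels (ENSMUSG00000040164.3, chromosome 2, 164163619 to 164171113, minus strand). Its level was 0.0478, 0.0619 and 0.239 CPM against 6.95, 5.07 and 5.47 CPM. The groups lay far apart, with 6 counts in the control-labelled group and 328 in the other. The fitted rise was 49.2-fold (log2 difference 5.62, SE 0.45, edgeR adjusted p = 2.25e-09), and 95.4-fold without control-labelled library 3.

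The remaining tested voltage-gated pores differed in abundance and in direction. Kcnh7, the ERG3 relative of Kcnh2, went the other way. It read 13.1, 12.3 and 10.1 CPM under the control label and 6.30, 9.66 and 7.55 CPM under the VprBP label, a fall of 1.51-fold with no overlap (log2 difference -0.59, SE 0.17, edgeR adjusted p = 0.00373). It shares 696 exonic bases with Gca on the opposite strand, and reads of the pair cannot be told apart because no strand setting is stated. Kcnh3, an ELK-type channel of brain, had 3 counts in the control-labelled and 111 in the VprBP-labelled group, means of 0.0572 and 1.96 CPM and a ratio of 35.4 (counting interval 11.8 to 174), and its fitted log2 difference moved from 4.98 to 5.89 without control-labelled library 2. Kcnq5, which carries part of the M-current of neurons, rose 5.10-fold from 0.188 ± 0.0955 to 0.981 ± 0.319 CPM (SD, n = 3). Neither Kcnc2 (5.60 ± 0.656 and 6.03 ± 0.705 CPM), a fast delayed rectifier, nor Kcnd1 (3.34 to 4.23 and 3.39 to 5.29 CPM), an A-type channel, was called. Their log2 differences were 0.10 (SE 0.19) and 0.24 (SE 0.24), so these 2 genes of middling abundance stood at levels that overlapped between the labels.

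Another 6 voltage-gated pores had too few counts to be tested. Kcna1, the Kv1.1 subunit whose gene lies 104985 bases from Kcna5 on chromosome 6, had 3 and 22 counts in the control-labelled and VprBP-labelled groups. Kcnh6 had 1 and 12, and Kcna7 had 39 and 21. Kcnh1, the EAG1 channel, had 13 counts in the control-labelled group, 10 of them in library 1, and none in the other. Against 3 counts over the group it was at least 4.53-fold lower, a bound that rests on that library. Of the 4 named, only Kcna1 had no overlap between the groups.

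**Figure D2:**
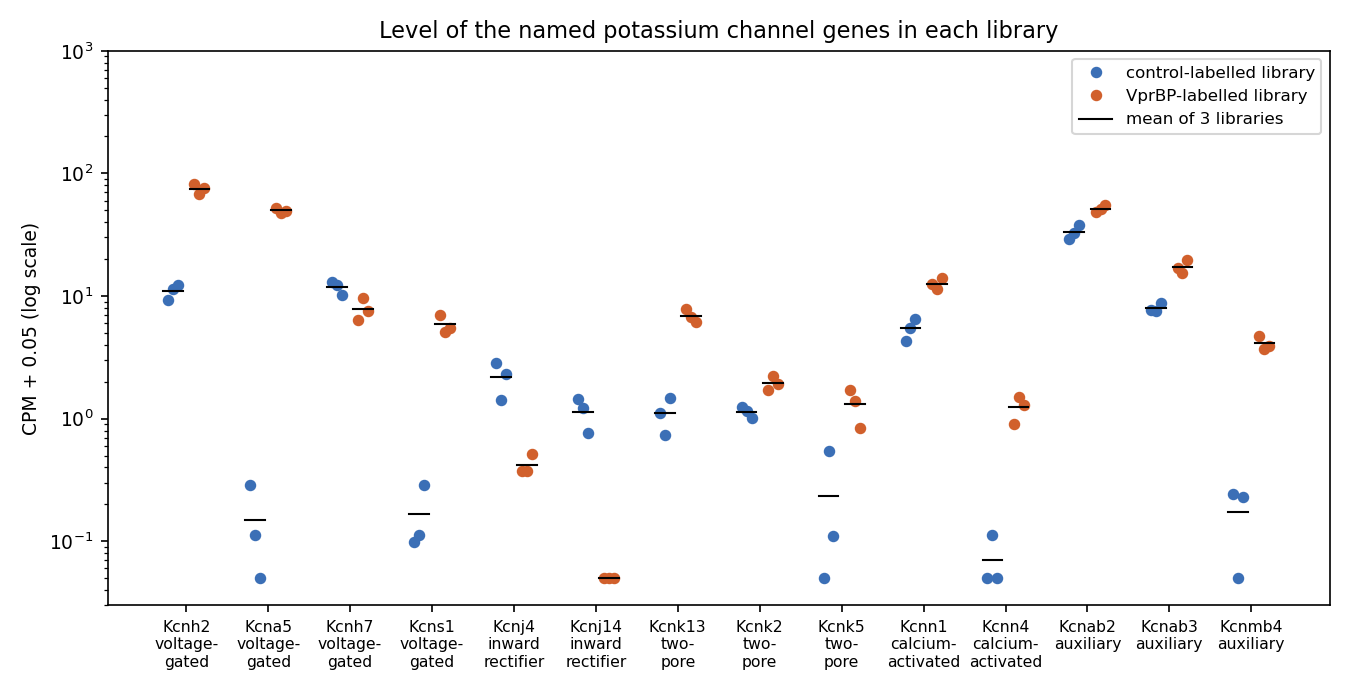
Level of the 14 members named by abundance or smallest p in each library (CPM + 0.05, log axis), with a bar at the mean of 3 libraries. Kcna5, Kcns1, Kcnmb4 and Kcnn4 lie under 0.3 CPM in every control-labelled library and above 0.8 CPM in every VprBP-labelled one, and Kcnj14 and Kcnj4 lie lower in the VprBP-labelled libraries.

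Inward rectifiers gave little to test. Only 2 of the 7 with a row were tested, and both fell, where 75.0% of all tested genes were called and 37.0% were called lower. Both reached the count minimum only in control-labelled libraries and so had to be lower in the others, and no direction of the group is read from them. Kcnj4 encodes Kir2.3, a strong rectifier (ENSMUSG00000044216.7, chromosome 15, 79483714 to 79505241, minus strand). It read 2.77, 1.36 and 2.27 CPM under the control label and 0.323, 0.324 and 0.469 CPM under the VprBP label. The groups did not overlap, and the fall was 5.68-fold (log2 difference -2.50, SE 0.47, edgeR adjusted p = 0.000102). Kcnj14 encodes Kir2.4, of the same subfamily (ENSMUSG00000058743.6, chromosome 7, 45816460 to 45824782, minus strand). Its 60 counts lay wholly in the control-labelled libraries, at 1.39, 1.18 and 0.716 CPM, and none of the VprBP-labelled libraries held a count. It was at least 20.9-fold lower, against 3 counts over the group (edgeR adjusted p = 1.33e-05). With Kcnj14 at that bound, the median of the pair was -3.45 on the log2 scale.

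The third Kir2 gene with a row, Kcnj12 (Kir2.2), went against the other two. All 29 of its counts fell in VprBP-labelled libraries, 6, 6 and 17 in libraries 1, 2 and 3, at least 9.25-fold higher, and it had too few counts to be tested. The 4 others were not tested either. Kcnj9, a subunit of G protein-gated channels, had 20 and 5 counts in the control-labelled and VprBP-labelled groups. Its neighbour on chromosome 1, the glial Kcnj10, separated from it by 11892 bases, had 9 and 2. Kcnj15 had 13 and 3, and Kcnj13 11 and 9, the latter sharing 623 exonic bases with Gigyf2 on the opposite strand. At this depth, levels of 0.143 to 0.186 CPM correspond to 3 counts in a library, and most of these values lie near that floor.

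Two-pore channels were scarce, with Kcnk13 the highest under the VprBP label. Of 4 tested, 2 rose and 2 were not called, a called share of 50% beside 75.0% of all tested genes. The median log2 difference of 1.74 became 2.70 with no count filter and 2.69 with a stricter one. Kcnk5 reached the count minimum only in VprBP-labelled libraries and had to be higher there. Of the 2 that reached it in all 6 libraries, Kcnk13 rose and Kcnk2 was not called. Kcnk13 encodes THIK-1, a leak channel that sets the resting potential of microglia (ENSMUSG00000045404.16, chromosome 12, 99964499 to 100062682, plus strand). It read 1.05, 0.681 and 1.43 CPM under the control label and 7.76, 6.74 and 6.04 CPM under the VprBP label. The lowest VprBP-labelled value was several times the highest control-labelled one. The rise was 6.44-fold (log2 difference 2.69, SE 0.28, edgeR adjusted p = 8.92e-08). Kcnk5, the TASK-2 channel that opens in alkaline surroundings, stood at 0, 0.495 and 0.0596 CPM against 1.67, 1.35 and 0.781 CPM, a fitted rise of 7.13-fold (edgeR adjusted p = 0.00237). Control-labelled library 2 held 8 of its 9 counts in that group: the log2 difference of 2.83 became 5.24 without that library and 2.17 without control-labelled library 1.

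Kcnk2, the TREK-1 channel that responds to membrane stretch, missed the threshold. It read 1.20, 1.11 and 0.954 CPM under the control label and 1.67, 2.16 and 1.87 CPM under the VprBP label, which did not overlap (log2 difference 0.80, SE 0.38, edgeR adjusted p = 0.0651). It shares 604 exonic bases with the antisense gene A430027H14Rik, which has no row. The call passed with scaling by library size only (log2 difference 0.91, adjusted p = 0.0368 from edgeR). Kcnk4, the related TRAAK channel, was at 0.695 ± 0.129 and 0.649 ± 0.611 CPM and was not called. It shares 587 exonic bases with Catsperz on the same strand, VprBP-labelled library 3 held the highest of the 6 values, the sign of its small difference turned under 4 alternatives, and it became -1.21 without that library. Kcnk18, the TRESK channel of sensory neurons, had 1 and 9 counts in the control-labelled and VprBP-labelled groups.

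Both calcium-activated pores with a row rose, where 75.0% of all tested genes were called and 37.9% were called higher. Their median log2 difference was 3.39. Kcnn4 reached the count minimum only in VprBP-labelled libraries and had to be higher there, so that median is not read as a shift of the group. Only Kcnn1 reached it in all 6 libraries. Kcnn1 encodes SK1, a small-conductance channel gated through bound calmodulin (ENSMUSG00000002908.17, chromosome 8, 70842049 to 70863258, minus strand). It read 4.21, 5.45 and 6.50 CPM under the control label and 12.4, 11.3 and 13.9 CPM under the VprBP label. The groups did not overlap, and the rise was 2.35-fold (log2 difference 1.23, SE 0.17, edgeR adjusted p = 3.61e-06). Kcnn4 encodes the intermediate-conductance channel KCa3.1 of blood cells (ENSMUSG00000054342.8, chromosome 7, 24370263 to 24386690, plus strand). It had 1 count in the control-labelled libraries and 67 in the VprBP-labelled ones, where it stood at 0.862, 1.46 and 1.25 CPM. The ratio was 64.1 with a counting interval of 11.1 to 2568 (edgeR adjusted p = 1.22e-05), and the fitted log2 difference moved from 5.55 to 7.49 without control-labelled library 2, which held that count. Kcnu1, the Slo3 channel of sperm, fell 2.78-fold from 1.04 ± 0.430 to 0.372 ± 0.182 CPM (edgeR adjusted p = 0.0214). It reached the count minimum only in control-labelled libraries and so had to be lower in the others. Its call was lost under 4 alternatives, among them leaving out control-labelled library 1 (adjusted p = 0.153) or VprBP-labelled library 1 (adjusted p = 0.123) and adding the replicate block (adjusted p = 0.0671), all from edgeR.

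Auxiliary subunits moved in both directions, as did all tested genes (37.9% called higher and 37.0% lower). Among 6 tested there were 4 that rose, 1 that fell and 1 not called. The called share, 83.3%, stood beside 75.0% of all tested genes. Of the 4 that rose, 2 reached the count minimum only in VprBP-labelled libraries and had to be higher there. The median log2 difference was 0.88 and went to -0.02 when no count filter was applied. Kcnab2, a beta subunit with an oxidoreductase fold that binds Kv1 channels (ENSMUSG00000028931.12, chromosome 4, 152390742 to 152477910, minus strand), read 29.0, 32.9 and 38.2 CPM under the control label and 48.6, 51.3 and 55.01 CPM under the VprBP label. It was the most abundant member in the control-labelled group, the groups did not overlap, and it rose 1.55-fold (log2 difference 0.64, SE 0.09, edgeR adjusted p = 4.53e-06). Kcnab3, its close relative (ENSMUSG00000018470.8, chromosome 11, 69326258 to 69333042, plus strand), stood at 7.60, 7.49 and 8.77 CPM against 16.9, 15.3 and 19.6 CPM. Again the groups lay apart, with a rise of 2.18-fold (log2 difference 1.12, SE 0.13, edgeR adjusted p = 6.04e-07). Kcnab1, the third beta gene, fell 5.42-fold from 1.87 ± 0.152 to 0.340 ± 0.192 CPM (edgeR adjusted p = 0.000214). Kcnab1 reached the count minimum in 3 control-labelled libraries and 1 VprBP-labelled library, so it was tested mainly through the group where it was high. Whether the 3 beta genes move together or apart is therefore not read from these values.

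Both beta subunits of the large-conductance calcium-activated channel with a row were called higher, and their pore gene, Kcnma1, had no row. They reached the count minimum only in VprBP-labelled libraries and so had to be higher there, and no joint rise is read from them. Kcnmb4, the brain beta 4 subunit (ENSMUSG00000054934.10, chromosome 10, 116417861 to 116473878, minus strand), read 0.191, 0 and 0.179 CPM under the control label and 4.63, 3.67 and 3.85 CPM under the VprBP label. Its 7 control-labelled counts set against 228 made a fitted rise of 29.8-fold (log2 difference 4.90, SE 0.51, edgeR adjusted p = 8.84e-08). It shares 693 exonic bases with the antisense gene Kcnmb4os2, which held at most 6.5 counts in a library. Kcnmb1, the smooth muscle beta 1 subunit, had 3 and 54 counts, means of 0.0525 and 0.954 CPM and a ratio of 17.2 (counting interval 5.59 to 86.1), and its fitted log2 difference moved from 3.95 to 4.68 without control-labelled library 1. Kcnip4, a calcium-binding partner of Kv4 channels, was not called (1.54 ± 0.631 and 0.948 ± 0.467 CPM), and Kcnip2, another such partner, had 24 counts in each group. Kcnip4 shares 168 exonic bases with 5730480H06Rik on the opposite strand. Kcne2, a partner of Kcnh2, had 8 and 6 counts, and Kcnrg, a suppressor of voltage-gated channels, had 48 and 18. These last 3 were not tested.

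Divided by exon length, so that genes can be compared, the order of the members changed between the labels. In the control-labelled libraries the highest were Kcnab2 (5.98 CPM per kb), Kcnab3 (2.78) and Kcnh2 (2.26), and these 3 made up 57.0% of the summed level of the 39 members. In the VprBP-labelled libraries they were Kcna5 (17.4 ± 0.858 CPM per kb, SD, n = 3), Kcnh2 (15.4 ± 1.34) and Kcnab2 (9.26 ± 0.574), with 67.3% of the sum. Kcna5 ranked 27 of 39 under the control label and 1 under the other, although its values and those of Kcnh2 in the VprBP-labelled libraries overlapped per kb. The summed level of all members was 17.6, 18.9 and 21.4 CPM per kb in the control-labelled and 64.7, 59.4 and 63.5 CPM per kb in the VprBP-labelled libraries.

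**Figure D3:**
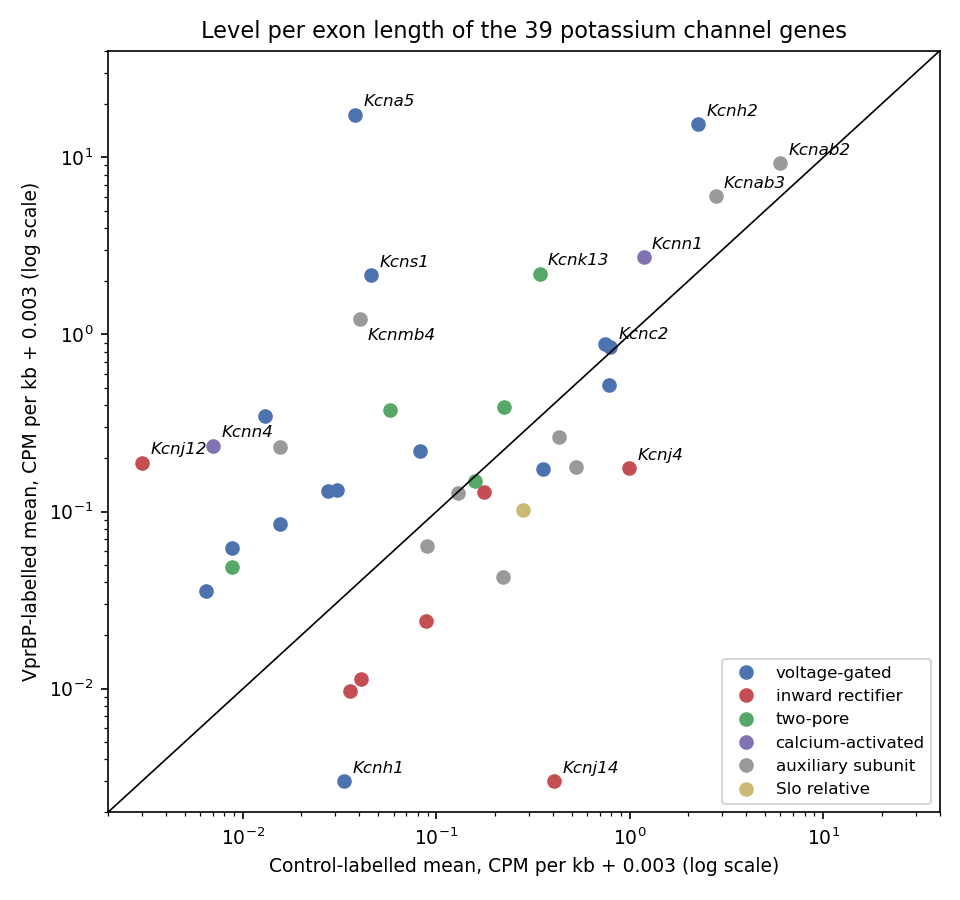
Mean level per kb of exon of the 39 members in the control-labelled (x axis) and VprBP-labelled libraries (y axis), both in CPM per kb + 0.003 on log axes, with the line of equal level and colours by structural group. Kcna5 and Kcnh2 lie at the top, and Kcnj14 and Kcnh1, with no VprBP-labelled counts, at the bottom.

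By structural group, voltage-gated pores carried the difference in the sum. Their summed level was 5.18 ± 0.271 CPM per kb in the control-labelled and 38.4 ± 2.35 CPM per kb in the VprBP-labelled libraries, a ratio of 7.41, and their share of all members went from 26.8% to 61.4%. Auxiliary subunits went from 10.2 ± 1.56 to 17.4 ± 0.905 CPM per kb, and their share from 52.7% to 27.8%. Two-pore channels went from 0.775 ± 0.0678 to 3.15 ± 0.214 CPM per kb and calcium-activated pores from 1.18 ± 0.251 to 2.97 ± 0.272. The inward rectifier sum went from 1.72 ± 0.292 to 0.520 ± 0.145 CPM per kb. Under the control label Kcnj4, Kcnj14 and Kcnj13 held 91.0% of that sum, and Kcnj4 alone 57.6%. Kcnj4 and Kcnj14 were tested only through control-labelled libraries, and Kcnj12 went the other way. The sums of the groups rest on few genes: Kcnn1 alone held 99.7% and 92.2% of the calcium-activated sum under the control and VprBP labels, Kcnk13 43.7% and 69.9% of the two-pore sum, and Kcna5, Kcnh2 and Kcns1 91.2% of the voltage-gated sum in the VprBP-labelled libraries.

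**Figure D4:**
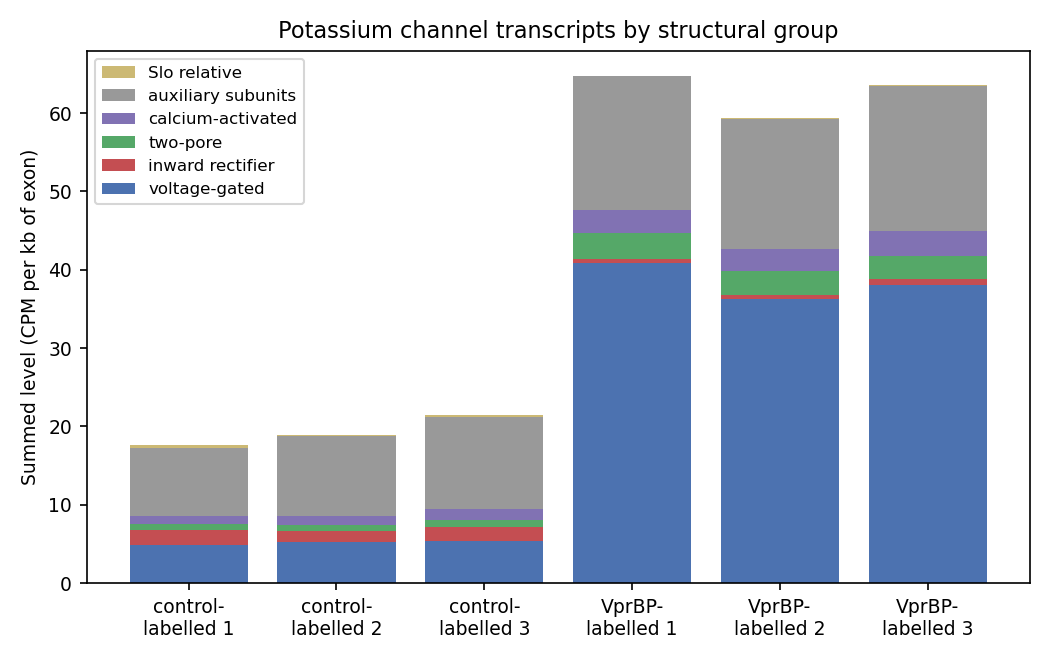
Summed level of the members in each library, in CPM per kb of exon, stacked by structural group. The 3 control-labelled bars end between 17.6 and 21.4 and the 3 VprBP-labelled bars between 59.4 and 64.7, with most of the gap in the voltage-gated segment.

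Start regions of the members differed widely in sequence. RefSeq promoters on GRCm38.p6, from 250 bases before to 50 bases after the annotated start, were matched by symbol for 30 of the 39 members. The following 4 are shown because they contrast members with near-silent control-labelled levels and one that fell, and capitals mark each CpG dinucleotide, the site of DNA methylation in mammals.
Kcna5 (chr6:126535506-126535805, minus strand): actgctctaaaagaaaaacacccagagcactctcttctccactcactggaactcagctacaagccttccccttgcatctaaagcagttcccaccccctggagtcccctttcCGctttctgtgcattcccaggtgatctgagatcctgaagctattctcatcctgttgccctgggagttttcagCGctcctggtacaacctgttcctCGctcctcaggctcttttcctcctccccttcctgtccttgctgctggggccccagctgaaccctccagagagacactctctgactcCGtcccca
Kcns1 (chr2:164171064-164171363, minus strand): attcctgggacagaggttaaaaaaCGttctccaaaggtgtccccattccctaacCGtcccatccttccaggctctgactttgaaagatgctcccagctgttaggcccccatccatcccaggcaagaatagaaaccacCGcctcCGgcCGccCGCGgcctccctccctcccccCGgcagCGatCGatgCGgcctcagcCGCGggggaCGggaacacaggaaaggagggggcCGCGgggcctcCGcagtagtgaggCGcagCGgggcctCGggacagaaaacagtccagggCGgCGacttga
Kcnmb4 (chr10:116473474-116473773, minus strand): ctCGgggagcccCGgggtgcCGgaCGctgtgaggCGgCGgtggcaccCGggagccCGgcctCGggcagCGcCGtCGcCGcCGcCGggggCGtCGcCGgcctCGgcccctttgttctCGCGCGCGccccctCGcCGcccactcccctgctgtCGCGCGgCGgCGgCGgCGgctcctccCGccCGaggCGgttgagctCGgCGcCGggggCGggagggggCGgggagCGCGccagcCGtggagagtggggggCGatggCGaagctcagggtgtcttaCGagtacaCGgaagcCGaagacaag
Kcnj4 (chr15:79505192-79505491, minus strand): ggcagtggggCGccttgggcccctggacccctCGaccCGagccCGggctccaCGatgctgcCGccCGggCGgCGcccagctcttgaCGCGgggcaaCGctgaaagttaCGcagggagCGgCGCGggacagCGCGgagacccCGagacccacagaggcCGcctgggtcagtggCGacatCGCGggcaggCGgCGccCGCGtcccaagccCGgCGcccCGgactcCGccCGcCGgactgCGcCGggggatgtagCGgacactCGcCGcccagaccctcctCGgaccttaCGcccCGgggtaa
Kcna5, which rose most, had 4 CpGs in its 300 bases, an observed to expected ratio of 0.204, whereas Kcns1 had 22 (0.721) and Kcnmb4 48 (1.04). Kcnj4, which fell, had 41 (0.948). Genes that rose from near silence thus had both CpG-poor and CpG-rich starts. The 30 members had 44 annotated starts in all, and 12 of these windows (27.3%) had a ratio of at least 0.6, beside 35.8% of all 32851 promoters. The E-box CACGTG, read on both strands, was found in 4 of the 44 windows (9.09%), of Kcnn4, Kcnk5 and Kcnab1, beside 7.15% of all promoters. The windows of Kcnab1 that hold it are not those of its first start. The E-box CATGTG was found in 1 window each of Kcnab2 and Kcnj13 (14.2% of all promoters), and the AP-1 site TGANTCA in 1 window each of Kcnip4 and Kcnk2 (7.81%). The cyclic AMP element TGACGTCA was found in none of these windows, beside 1.79% of all promoters. A match describes the letters only and is not evidence of binding.

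Genes that work with the channels were read from a pair of lists, drawn up with earlier results of these data known. Of 17 channel partners, 10 had a row and 8 were tested, and 6 rose, none fell and 2 were not called (median log2 difference 0.67). Over all tested genes 75.0% were called, 37.9% of them all being higher calls, so being called was no feature of the partners. Amigo1, an adhesion protein that accompanies Kv2 channels, rose 5.43-fold from 3.57 ± 0.706 to 19.6 ± 1.78 CPM. Dlg4, the scaffold PSD-95 that clusters Kv1 channels, rose 3.37-fold from 14.4 to 18.4 CPM up to 54.1 to 56.9 CPM. Calm3, a calmodulin gene, rose 2.68-fold from 45.6 ± 3.46 to 122 ± 4.09 CPM. Akap9, an anchor of Kcnq1 complexes, and the ubiquitin ligase Nedd4l were the pair not called. Without control-labelled library 3, 1 partner was called lower.

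Of 14 other genes that move potassium or gate related channels, 12 had a row and 11 were tested, and 6 rose, 3 fell and 2 were not called (median log2 difference 0.65). Hcn2, a cation channel of the voltage-gated superfamily that opens on hyperpolarisation, rose 14.9-fold from 5.76 ± 1.17 to 86.2 ± 6.69 CPM. The cotransporters Slc12a2, which brings sodium, potassium and chloride in, and Slc12a7, which takes potassium and chloride out, rose 2.50-fold and 2.15-fold. Slc12a4, of the latter kind, fell 1.45-fold from 127 ± 3.40 to 87.7 ± 2.14 CPM. The intracellular potassium-permeable channels Tmem38b and Tmem38a fell 2.38-fold and 1.66-fold. Each of these genes had an edgeR adjusted p below 0.05, as did 75.0% of all tested genes.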

How the data were processed

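RNA was sequenced from 6 mouse libraries, 3 per label, after RNeasy purification and SMARTer mRNA library preparation, per the labels' protocols. The authors deposited 1 expected count for each gene and library, with no scaling. Partek and the mouse build mm10 are named in the submitters' processing notes; for the aligner, counter, strand setting and annotation, nothing is given in the sources used here. Whole numbers (within 0.001) made up 62.1% to 64.5% of a library's values.

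These estimates were rounded, then fitted with edgeR 4.0.16 under R 4.3.3 (quasi-likelihood F test, TMM, filterByExpr, group as the only term), with Benjamini-Hochberg adjustment over 14641 genes; 15 of the 39 members, with totals of 10 to 66 counts, were not tested. SE is the log2 difference divided by the square root of F. Folds come from edgeR unless called a ratio or bound. A group at 0 was set to 3 counts over the group; with 1 to 3 counts, the ratio of scaled counts is given with an exact conditional 95% interval. Intervals and floors cover counting error only, since these reads carry no molecular identifiers. Levels per kb use exon lengths from GENCODE M21 (GRCm38), which matched 36 of 39 member IDs with their version and 3 without. Gene ends are given 1 base before the file's stop column, as the annotation has them.

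The family, its structural groups and the lists were chosen with earlier results of these data known. Named in full were members with a mean of at least 10 CPM in a group and the 3 with the smallest p in each structural group and among auxiliary subunits; from each partner list the 3 higher and 3 lower with the smallest p. Members were classed by subfamily, with the auxiliary subunits and Kcnu1 kept apart from the pores. Alternatives were DESeq2 1.42.0 and its size factors, limma 3.58.1 (voom), upper quartile scaling, scaling by library size alone, a stricter filter, no filter, the replicate block and leaving out each library. The edgeR fit was tested on simulated data. No pair of libraries held identical values. Promoters are from RefSeq. Some genes counted in the totals are not reported here by name.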

Additional observations from a re-analysis of the deposited data

How the results depend on the processing

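Over 14 refits, 18 of the 19 called members kept their call and direction, and Kcnu1 lost its call in 4. Its log2 differences there were -1.46 with no filter, -1.45 with the replicate block, -1.07 without control-labelled library 1 and -1.11 without VprBP-labelled library 1. Kcnk4, not called, changed sign with library size only (0.0165) and without control-labelled library 1 (0.0297), VprBP-labelled library 1 (0.27) or VprBP-labelled library 2 (0.23), and went to -1.21 without VprBP-labelled library 3. Dcaf1 was no longer called with library size only (-0.12), which moved the median of all genes from -0.01 to 0.10 and those of channel partners and of the other potassium genes to 0.79 and 0.76. The labels' replicate numbers do not state a pairing. Correlations of the deviations of same-numbered libraries were -0.0324, 0.00664 and -0.0422, and with the replicate block 14 members were called higher and 4 lower.

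Medians moved with which scarce genes entered. With no filter the median was 0.81 for all members, -2.02 for inward rectifiers (1 of them then called higher), 2.70 for two-pore channels and -0.0196 for auxiliary subunits, and 2 voltage-gated pores were called lower. With at least 10 counts in each library of a group the two-pore median was 2.69. With limma-voom the medians went from -4.92 to -3.90 for inward rectifiers, both with the fitted value of Kcnj14, and from 3.39 to 3.07 for calcium-activated pores. Counting auxiliary subunits and Kcnu1 with their pores gave voltage-gated 2 lower calls and a median of 1.12, and calcium-activated 4 higher calls, 1 lower and a median of 3.95. When each library was left out in turn, medians ran from 0.92 to 1.18 for all members, 1.80 to 2.83 for voltage-gated, 1.52 to 1.80 for two-pore, 3.03 to 4.36 for calcium-activated and 0.19 to 0.69 for auxiliary subunits. Lower calls ran from 1 to 2 among auxiliary subunits and from 0 to 1 among channel partners.

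Without the member highest over both labels together, each group's sum was lower by construction. In control-labelled and VprBP-labelled libraries it was 2.92 and 23.0 CPM per kb for voltage-gated without Kcnh2, 0.731 and 0.348 for inward rectifiers without Kcnj4, 0.436 and 0.947 for two-pore without Kcnk13, 0.00403 and 0.233 for calcium-activated without Kcnn1, and 4.20 and 8.14 for auxiliary subunits without Kcnab2. Sums were also recomputed without each library in turn, chosen after seeing the data, but with 3 libraries such means cannot move by 1 SD and nothing is read from them. Unless stated above, the cause of a change was not tested. Depth limits the scarce members: 22 of 39 had under 100 counts in all.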
